A study of Rattus norvegicus with 11 samples.

Results

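Leukocytes leave the blood in steps. Glycoproteins on the leukocyte first catch on selectins and slow the cell, and integrins then hold it firmly on immunoglobulin-type ligands of the vessel wall. An integrin is a pair of 1 alpha and 1 beta subunit, and its grip depends on activation inside the cell as well as on how much of it is made. In arthritis these molecules bring neutrophils, monocytes and lymphocytes into the joint. The 9 genes described here, of 32623 listed in the deposited table, were taken by name to cover these steps. They are Selplg for the selectin step, the integrin subunits Itgb2, Itgal, Itgam, Itgax, Itga4 and Itgb1, the hyaluronan receptor Cd44 and the integrin ligand Icam1. Each name matched 1 gene of the table.

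RNA of peripheral white blood cells (WBCs) was sequenced from 4 rats with collagen-induced arthritis (CIA) and from 3 normal healthy controls, 11 samples in all. The rats were male Wistar rats of 7 weeks at the start, and CIA was induced with type II collagen in incomplete Freund's adjuvant, with a boost on day 7. Each CIA rat gave a Nampt++ sample on about day 8 and a Nampt+ sample on about day 14, so both CIA groups hold the same 4 rats and differ in status, day and time since the boost together, which cannot be told apart. The statuses name overexpression of Nampt in blood cells and its later fading, as the authors judged it by PCR. In the libraries Nampt had 20.3, 32.9 and 13.5 FPKM in controls 1 to 3, 46.5, 10.1, 36.1 and 30.6 in those labelled Nampt++ of rats 1 to 4, and 11.4, 14.3, 27.5 and 36.9 in those labelled Nampt+. The library labelled Nampt++ of rat 2 was thus the lowest of all 11, and in rats 2 and 4 Nampt was higher in the library labelled Nampt+ than in the one labelled Nampt++. A Nampt++ or Nampt+ sample is in all that follows a library so labelled, and directions between the statuses are between labels. FPKM, the unit of every level given here, is the number of fragments of a gene scaled by its length and by the library's total, so it allows levels of different genes to be compared. Samples of CIA rats and controls share only numbers, and the numbers of controls name a sample and nothing more.

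The total counts of the samples lay between 65340027 and 85819418, and although red blood cells had been lysed, 11 haemoglobin genes took 6.84% to 42.8% of them. The extraction protocol in the labels speaks of retinas. All 8 retinal marker genes had a mean FPKM below 1 and summed to between 0.0547 and 1.93 FPKM, 2 of them being listed at 0 in every sample, whereas 8 of 8 T cell markers and 8 of 10 neutrophil markers had a mean of at least 1. Of 5 endothelial markers, 1 reached this mean, namely Vwf with 10.9 FPKM. Summed neutrophil markers (highest gene S100a9) ranged from 2070 to 40100 FPKM between samples, monocyte markers (Cd14) from 171 to 750, T cell markers (Cd3g) from 319 to 1120, B cell markers (Cd79b) from 144 to 689, NK cell markers (Nkg7) from 60 to 418, platelet markers (Pf4) from 1800 to 16000 and erythroid markers (Alas2) from 279 to 2070. Marker RNA of several cell types was thus present in every sample and its level differed widely between rats of 1 group. In such RNA, fewer cells of a type and less RNA per cell cannot be told apart.

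None of the 9 genes passed the thresholds in any of the 3 comparisons between groups. The thresholds are those of the study, a ratio of mean FPKM between groups above 2 or below 0.5 together with an unadjusted p below 0.05, here from the quasi-likelihood test of edgeR on the deposited counts. Of all genes tested, 0.686% passed them, in short were called, between Nampt++ samples and controls, 0.497% between Nampt+ samples and controls, and 0.642% between Nampt+ and Nampt++ samples. At these shares fewer than 1 call is met among 9 genes, so the count of 0 says nothing particular about these genes. The count of these genes at an unadjusted p under 0.05 was also 0 in every comparison, by edgeR, by DESeq2 and by limma on log2(FPKM + 1). DESeq2 gave no p for Icam1 between Nampt+ samples and controls, so its count there leaves Icam1 out. For all genes, the share at an unadjusted p under 0.05 was 1.57%, 0.87% and 2.28%, and the count at an adjusted p under 0.05 was 0 by edgeR in each comparison, 5, 4 and 5 by DESeq2, and 0, 2 and 0 by limma. The groups overlapped in FPKM for each of the 9 genes in each comparison, while the share of tested genes without overlap was 1.1%, 0.444% and 0.41%.

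**Figure D1:**
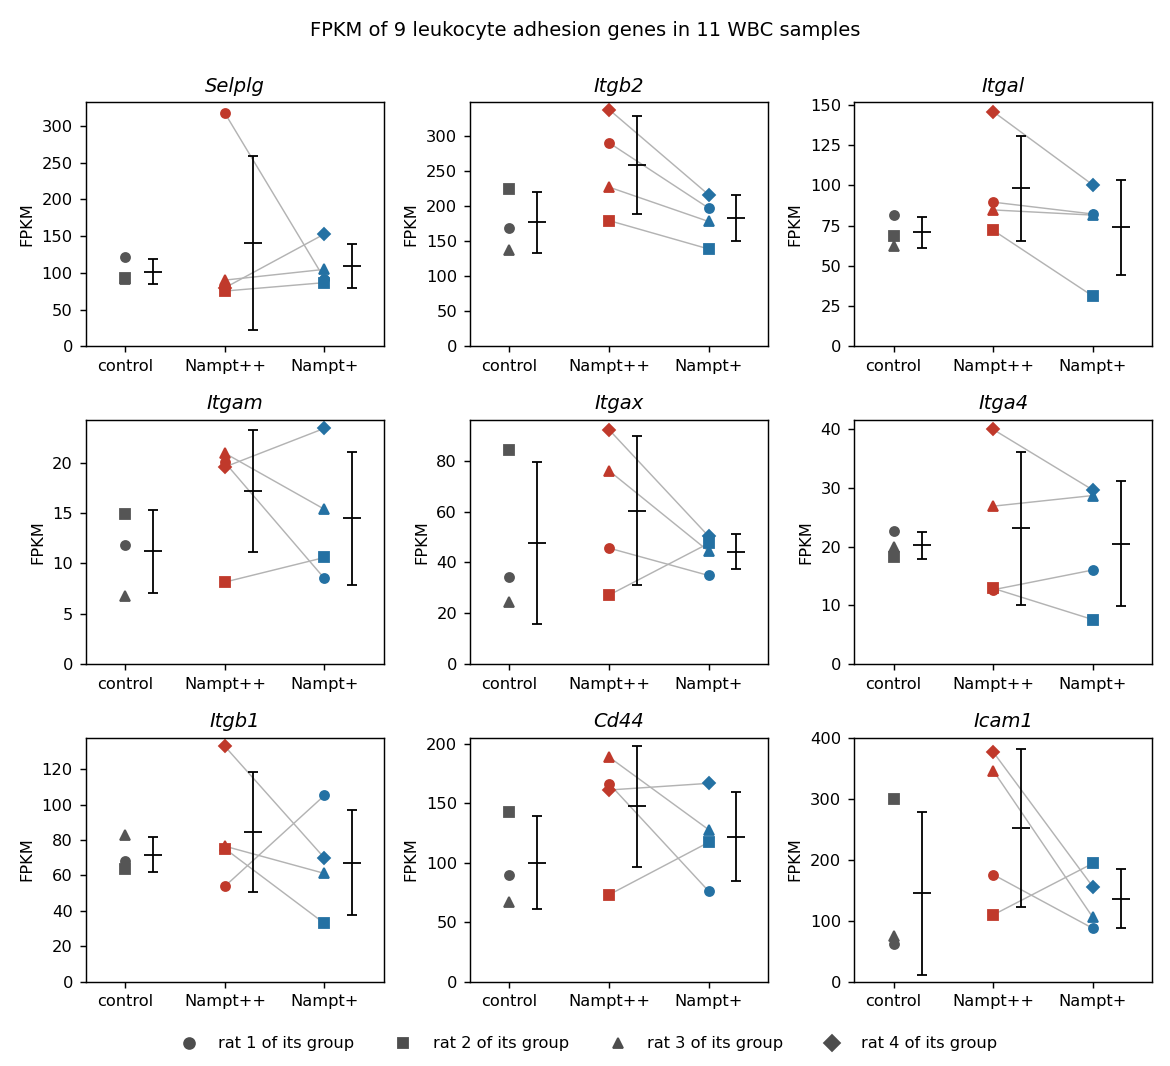
FPKM (y axis, linear, from 0) of the 9 adhesion genes in 3 normal healthy controls, 4 Nampt++ samples and 4 Nampt+ samples of WBCs (x axis). Each symbol is 1 sample, grey lines join the samples of 1 CIA rat, and the black bar beside each group is its mean with the SD. In every panel the groups overlap, and Itgb2 and Itgal alone have 4 falling lines.

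All 9 genes were expressed at levels well above the filter of 1 FPKM. By the mean over 11 samples the order was Itgb2 with 208 FPKM, Icam1 with 181, Cd44 with 125, Selplg with 119, Itgal with 81.8, Itgb1 with 74.8, Itgax with 51.0, Itga4 with 21.4 and Itgam with 14.5. Neighbours in this order often changed places. Itgb2 exceeded Icam1 in 7 of 11 samples, Icam1 exceeded Cd44 in 8, Cd44 exceeded Selplg in 6, Itgal exceeded Itgb1 in 7, and both Itgb1 over Itgax and Itga4 over Itgam held in 9. Selplg stood above Itgal in 10 of 11 samples and Itgax above Itga4 in all 11, so the step from Itgax to Itga4 was the clearest between neighbours. The listed interval of Itgam encloses Itgax, as described below, so the levels of Itgam and Itgax and their places in this order are uncertain.

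The genes differed in how far samples lay apart. The highest sample of Icam1 was 6.14 times the lowest, and this ratio was 5.27 for Itga4, 4.66 for Itgal, 4.21 for Selplg, 4.04 for Itgb1, 3.79 for Itgax, 3.46 for Itgam, 2.80 for Cd44 and 2.44 for Itgb2. The median of this ratio over the 4917 genes that averaged at least 10 FPKM without a sample at 0 was 2.85, and 90.6% of them varied less than Icam1 and 29.7% less than Itgb2. The beta subunit shared by the leukocyte integrins was thus the steadiest of the 9 genes, and the ligand Icam1 the least steady.

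Selplg (ENSRNOG00000000699, chromosome 12, 48577905 to 48579196) encodes PSGL-1, the glycoprotein that binds P-selectin and lets leukocytes roll. Its FPKM was 121, 92.6 and 91.1 in controls 1 to 3, 317, 75.3, 90.2 and 79.7 in Nampt++ samples of rats 1 to 4, and 92.2, 86.7, 105 and 153 in their Nampt+ samples. The Nampt++ sample of rat 1 stood far above all others, and the other 3 Nampt++ samples lay below every control. Controls averaged 102 ± 17.1 (n = 3, SD), Nampt++ samples averaged 141 ± 118 (n = 4, SD), and Nampt+ samples averaged 109 ± 30.1 (n = 4, SD). The log2 fold change of Nampt++ samples against controls was 0.37 (standard error 0.53, 95% interval -0.85 to 1.60, adjusted p = 0.9999 by edgeR and Benjamini-Hochberg). Without that 1 sample it was -0.34, so the direction rested on rat 1. The fold change from Nampt++ to Nampt+ samples was likewise -0.24 with this sample and 0.47 without it.

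The high Selplg sample was also the highest of the 11 for summed neutrophil markers, with 40100 FPKM against 2070 to 15500 in the other samples. Below it the orders matched only in part. Rat 2 at Nampt+ status followed with 15500 FPKM of these markers, yet its Selplg, 86.7 FPKM, was among the 3 lowest. Control 2 had 14000 FPKM of markers and 92.6 of Selplg, close to the 2070 and 91.1 of control 3. Other samples matched better. Rat 4 at Nampt+ status had 13900 FPKM of markers and 153 of Selplg, and rat 2 at Nampt++ status had 2890 and 75.3. The part of neutrophil content in the Selplg level was not tested.

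Itgb2 (ENSRNOG00000001224, chromosome 20, 11777783 to 11815647) encodes CD18, the beta chain that LFA-1, Mac-1 and CD11c/CD18 have in common. It had 169, 224 and 138 FPKM in controls 1 to 3, 290, 179, 227 and 337 in Nampt++ samples of rats 1 to 4, and 197, 139, 178 and 216 in Nampt+ samples. The 3 highest samples were all Nampt++ samples, but the Nampt++ sample of rat 2 lay below control 2. Controls averaged 177 ± 43.4 (n = 3, SD), Nampt++ samples averaged 258 ± 69.4 (n = 4, SD), and Nampt+ samples averaged 182 ± 33.0 (n = 4, SD). Nampt++ samples differed from controls by 0.40 on the log2 scale (standard error 0.34, 95% interval -0.39 to 1.19), and Nampt+ samples differed from Nampt++ samples by -0.38 (standard error 0.21, 95% interval -0.85 to 0.09, edgeR, unadjusted p = 0.101, adjusted p = 0.9996). Between Nampt+ samples and controls the estimate was 0.01 (95% interval -0.81 to 0.82). The first difference was 0.84 without control 2 (edgeR, unadjusted p = 0.0217) and 0.12 without control 3, and the second was -0.51 without the Nampt+ sample of rat 2 (edgeR, unadjusted p = 0.0311), none with a ratio past the thresholds. Omitting control 2 or the Nampt+ sample of rat 2 also gave the most calls among all genes of any single omission in its comparison. In the comparison of Nampt+ with Nampt++ samples, omitting the Nampt++ sample of rat 2 gave nearly as many, 163.

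Itgal (ENSRNOG00000017980, chromosome 1, 198744050 to 198781750) encodes CD11a, which pairs with CD18 to make LFA-1, the ICAM-1 receptor that lymphocytes use most. Controls had 81.4, 68.7 and 62.4 FPKM, Nampt++ samples of rats 1 to 4 had 89.6, 72.2, 84.8 and 146, and their Nampt+ samples had 82.3, 31.3, 81.6 and 100 FPKM. The extremes both came from CIA rats, with rat 2 lowest at Nampt+ status and rat 4 highest at Nampt++ status. Nampt++ samples differed from controls by 0.37 on the log2 scale (standard error 0.28, 95% interval -0.28 to 1.02), and between Nampt+ and Nampt++ samples it was -0.39 (standard error 0.22, 95% interval -0.89 to 0.11, edgeR, unadjusted p = 0.108, adjusted p = 0.9996). Against controls, Nampt+ samples differed by -0.04 (95% interval -0.66 to 0.59). The first of these differences was 0.53 without control 2 and 0.15 without control 3.

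Itgb2 and Itgal were the 2 genes of the 9 with a lower FPKM in the Nampt+ than in the Nampt++ sample of each of the 4 rats. Among all genes tested, 4.94% were lower in all 4 rats and 1.26% higher in all 4. For Itgb2 the log2 ratio of FPKM of the Nampt+ to the Nampt++ sample was -0.56, -0.37, -0.35 and -0.64 in rats 1 to 4. This set is even, but no allowance was made for haemoglobin in these ratios. For Itgal the ratio was -0.12, -1.21, -0.06 and -0.54, so the FPKM of rats 1 and 3 differed little between samplings. With the rat as a replicate block in edgeR the fold changes were -0.39 for Itgb2 (standard error 0.26, unadjusted p = 0.186) and -0.39 for Itgal (standard error 0.21, unadjusted p = 0.117), each with an adjusted p of 0.9999.

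Itgam (ENSRNOG00000019728, chromosome 1, 199495298 to 199623960) encodes CD11b, the alpha chain of Mac-1 on neutrophils and monocytes. Itgax (ENSRNOG00000036703, chromosome 1, 199555722 to 199576932) encodes CD11c, which marks dendritic cells and is made by monocytes as well. As listed, Itgam extends over 128663 bases on the plus strand and encloses Itgax, which lies on the same strand from 60.4 to 81.6 kb behind the Itgam start. In the GRCr8 assembly the order of genes is Itgam, Itgax, Itgad and Cox6a2, and Itgad, the CD11d gene, was not found in the table under this symbol. How the authors divided reads among these genes is not given in the sources used here, so the levels of Itgam and Itgax are uncertain.

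**Figure D2:**
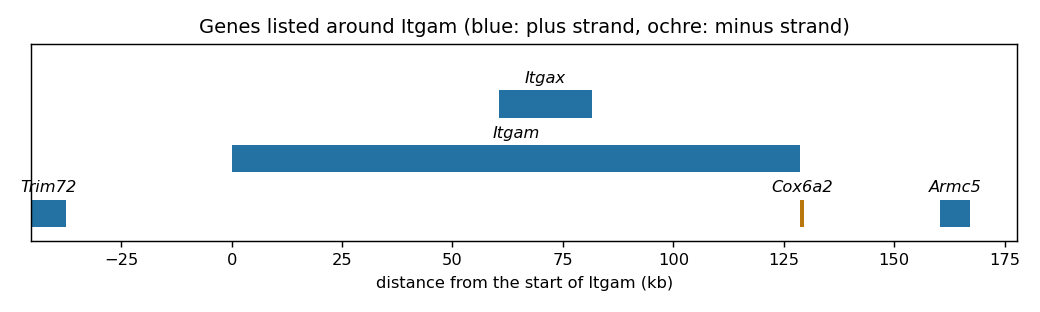
Genes around Itgam as the deposited table lists them, drawn to scale by their distance in kb from the start of Itgam (x axis). Height has no meaning and only keeps overlapping genes apart. The interval of Itgam spans 128663 bases and contains all of Itgax, and it ends just before Cox6a2.

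Itgam had 11.9, 14.9 and 6.77 FPKM in controls 1 to 3, 20.02, 8.14, 20.9 and 19.6 in Nampt++ samples of rats 1 to 4, and 8.5, 10.6, 15.4 and 23.4 in Nampt+ samples. Of the Nampt++ samples, 3 lay close together above all controls and that of rat 2 lay among the controls. Nampt++ samples differed from controls by 0.45 on the log2 scale (standard error 0.45, 95% interval -0.59 to 1.48), Nampt+ samples from controls by 0.28 (95% interval -0.79 to 1.35) and Nampt+ from Nampt++ samples by -0.15 (95% interval -0.92 to 0.62). The first was 0.94 without control 2 and 0.0879 without control 3. With the counts of Itgam and Itgax added together, an alternative chosen after the values were seen, the 3 differences over all samples were 0.20, -0.02 and -0.21.

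Itgax had 34.3, 84.1 and 24.4 FPKM in controls, 45.7, 27.1, 76.1 and 92.3 in Nampt++ samples of rats 1 to 4 and 34.9, 47.5, 44.4 and 50.3 in Nampt+ samples. Control 2 was the second highest of all samples, and the Nampt+ samples were the closest together, averaging 44.3 ± 6.73 (n = 4, SD). Nampt++ samples averaged 60.3 ± 29.4 (n = 4, SD), and controls averaged 47.6 ± 32.0 (n = 3, SD). The fold change of Nampt++ samples against controls was 0.10 (standard error 0.60, 95% interval -1.30 to 1.496). It moved to 1.10 without control 2 and to -0.31 without control 3, so it depended on which controls were used. The fold change of Nampt+ samples was -0.15 against controls (95% interval -1.51 to 1.22) and -0.23 against Nampt++ samples (95% interval -1.12 to 0.66).

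The groups overlapped in the level of each alpha chain relative to its beta chain. The ratio of Itgal to Itgb2 lay between 0.307 and 0.482 in controls, 0.309 and 0.433 in Nampt++ samples and 0.226 and 0.465 in Nampt+ samples. For Itgax to Itgb2 the ranges were 0.177 to 0.376, 0.152 to 0.336 and 0.177 to 0.343, and for Itgam to Itgb2 they were 0.0491 to 0.0703, 0.0454 to 0.0924 and 0.0432 to 0.108. Added together, the 3 alpha chains reached 0.536 to 0.806 of the Itgb2 level over the 11 samples, a narrower relative range than that of any single alpha chain. Itgb2 was above the sum of these alpha chains in every sample, though the levels of Itgam and Itgax are uncertain as described above. The share held by CD11c and CD11a shifted between samples, since Itgax to Itgal ranged from 0.376 in the Nampt++ sample of rat 2 to 1.52 in the Nampt+ sample of rat 2.

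**Figure D3:**
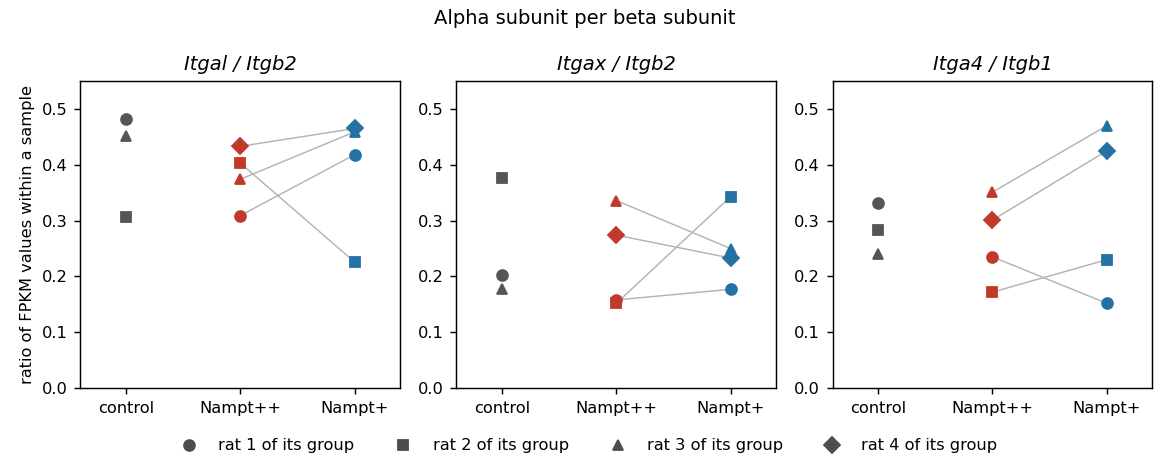
Ratio of the FPKM of an alpha subunit to that of its beta subunit within a sample (y axis, linear, from 0), for Itgal to Itgb2, Itgax to Itgb2 and Itga4 to Itgb1, in controls, Nampt++ and Nampt+ samples (x axis). Each symbol is 1 sample and grey lines join samples of 1 CIA rat. The groups overlap in all 3 panels, and Itga4 to Itgb1 spans the widest range among Nampt+ samples, from 0.152 to 0.470.

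Itga4 (ENSRNOG00000004861, chromosome 3, 66193059 to 66263960) encodes CD49d, which pairs with the beta 1 chain to make VLA-4, the receptor for VCAM-1 on lymphocytes and monocytes. It had 22.7, 18.1 and 19.8 FPKM in controls, 12.6, 12.9, 26.9 and 40.0 in Nampt++ samples of rats 1 to 4 and 16.0, 7.57, 28.7 and 29.7 in Nampt+ samples. Controls varied little, whereas CIA rats 1 and 2 lay below the controls and rats 3 and 4 above them at both times. The fold change was 0.10 between Nampt++ samples and controls (standard error 0.39, 95% interval -0.80 to 1.00), -0.09 between Nampt+ samples and controls (95% interval -0.74 to 0.56) and -0.18 between Nampt+ and Nampt++ samples (95% interval -1.02 to 0.67). This split of the rats was seen in the values, and no test was made of it.

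Itgb1 (ENSRNOG00000010966, chromosome 19, 61677542 to 61725535) encodes CD29, the beta chain of VLA-4 and of many matrix receptors. Controls had 68.3, 63.9 and 82.8 FPKM, Nampt++ samples of rats 1 to 4 had 53.9, 75.1, 76.5 and 133, and Nampt+ samples had 105, 32.9, 61.1 and 69.8 FPKM. Rat 1 was higher at Nampt+ than at Nampt++ status, and the other 3 rats were lower. The fold change was 0.19 between Nampt++ samples and controls (95% interval -0.48 to 0.86), -0.11 between Nampt+ samples and controls (95% interval -0.75 to 0.52) and -0.29 between Nampt+ and Nampt++ samples (95% interval -0.97 to 0.39). The ratio of Itga4 to Itgb1 was 0.235, 0.172, 0.351 and 0.301 in Nampt++ samples of rats 1 to 4 and 0.152, 0.230, 0.470 and 0.425 in Nampt+ samples, which was again higher in rats 3 and 4 than in rats 1 and 2. Platelets also make CD29, and the Nampt+ sample of rat 1, the second highest for Itgb1, had the highest summed platelet markers with 16000 FPKM. The highest sample for Itgb1, the Nampt++ sample of rat 4, was the next in platelet markers with 9900 FPKM. The Nampt+ sample of rat 2, the lowest for Itgb1, had 7070 FPKM of platelet markers, above the 3620 to 6900 of controls. The part of platelets in the Itgb1 level was not tested.

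Cd44 (ENSRNOG00000006094, chromosome 3, 92696313 to 92783658) encodes the hyaluronan receptor, which supports rolling and binds E-selectin when it carries the right sugars. It had 89.5, 143 and 67.3 FPKM in controls, 166, 73.0, 189 and 161 in Nampt++ samples of rats 1 to 4 and 76.1, 117, 128 and 167 in Nampt+ samples. Of the Nampt++ samples, 3 were above every control, and that of rat 2 was near the lowest control. Controls averaged 99.9 ± 38.9 (n = 3, SD), Nampt++ samples averaged 147 ± 51.0 (n = 4, SD), and Nampt+ samples averaged 122 ± 37.2 (n = 4, SD). The fold change was 0.39 between Nampt++ samples and controls (standard error 0.46, 95% interval -0.67 to 1.44), 0.26 between Nampt+ samples and controls (95% interval -0.87 to 1.39) and -0.11 between Nampt+ and Nampt++ samples (95% interval -0.93 to 0.70). The first was 0.99 without control 2 (edgeR, unadjusted p = 0.0434), with a ratio still within the thresholds, and 0.0565 without control 3. Without control 2, 462 of 11303 genes were called, against 77 of 11219 with all samples.

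Icam1 (ENSRNOG00000020679, chromosome 8, 22035256 to 22047059) encodes the ligand of LFA-1 and Mac-1, which endothelium displays and activated leukocytes make too, and which NF-kappa B is known to induce. It had 61.4, 299 and 74.5 FPKM in controls, 176, 109, 346 and 377 in Nampt++ samples of rats 1 to 4 and 87.5, 194, 106 and 156 in Nampt+ samples. Control 2 stood apart from controls 1 and 3, which were the lowest samples of all, and the Nampt++ samples of rats 3 and 4 were the highest. Controls averaged 145 ± 134 (n = 3, SD), Nampt++ samples averaged 252 ± 130 (n = 4, SD), and Nampt+ samples averaged 136 ± 48.4 (n = 4, SD). The fold change between Nampt++ samples and controls was 0.52 (standard error 0.74, 95% interval -1.18 to 2.22), and without control 2 it was 2.01 and past the thresholds (edgeR, unadjusted p = 0.00547). That omission raised the count of all genes called from 77 of 11219 to 462 of 11303, the most of any single omission there. Nampt+ samples differed from controls by -0.08 (95% interval -1.90 to 1.75), and without control 2 by 1.41 (edgeR, unadjusted p = 0.0608).

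From Nampt++ to Nampt+ samples the fold change of Icam1 was -0.59 (standard error 0.52, 95% interval -1.78 to 0.60, edgeR, unadjusted p = 0.290, adjusted p = 0.9996). Its log2 ratio within a rat was -1.01 in rat 1, -1.71 in rat 3 and -1.27 in rat 4, but 0.82 in rat 2, the only rat in which it was higher. Without the Nampt+ sample of rat 2 the fold change was -1.24 and past the thresholds (edgeR, unadjusted p = 0.0182). Calls among all genes were also the most of any single omission in that comparison. Omitting the Nampt++ sample of rat 2 gave nearly as many, 163, and Icam1 was not called then (fold change -0.80). A single sample thus decided whether Icam1 was called between Nampt++ samples and controls, and likewise between Nampt+ and Nampt++ samples. Control 2 had summed T cell markers of 448 FPKM against 971 and 1120 in the other controls, and summed neutrophil markers of 14000 FPKM against 7180 and 2070. Its summed monocyte markers were 473 FPKM against 171 and 243. The part of these differences in the Icam1 level was not tested.

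The promoters of Icam1 and Itgam are shown because their genes hold, respectively, the widest spread and the uncertain overlap among these genes. Both are the 250 bases before the transcription start in RefSeq, assembly GRCr8, plus strand, which is given in its own coordinates and not in those of the deposited table.
Icam1 promoter, chr8:27829595-27829844: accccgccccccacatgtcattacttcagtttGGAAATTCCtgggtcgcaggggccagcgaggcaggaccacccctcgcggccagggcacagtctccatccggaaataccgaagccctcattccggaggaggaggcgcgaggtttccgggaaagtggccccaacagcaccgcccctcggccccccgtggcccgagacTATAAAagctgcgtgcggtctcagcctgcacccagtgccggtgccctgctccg
Itgam promoter, chr1:192089342-192089591: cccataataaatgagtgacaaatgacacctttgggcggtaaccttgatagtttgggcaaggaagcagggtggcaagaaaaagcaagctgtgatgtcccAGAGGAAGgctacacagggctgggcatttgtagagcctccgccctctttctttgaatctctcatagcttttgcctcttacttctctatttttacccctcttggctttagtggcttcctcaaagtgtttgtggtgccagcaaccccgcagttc

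The capitals mark exact matches, on either strand, to GGAAATTCC (a kappa B motif), AGAGGAAG (a motif of PU.1, a factor of myeloid cells) and TATAAA (the motif that often lies shortly before a start). No match overlapped another in these promoters. RefSeq promoters were matched for 6 of the 9 genes, namely Itgam, Itgax, Itga4, Itgb1, Cd44 and Icam1, each searched over 300 bases that also take in 50 after the start. Of these 6, only Icam1 held GGAAATTCC, 218 bases before the start, and only Icam1 held TATAAA, 53 bases before it. Only Itgam held AGAGGAAG, 152 bases before the start. Among 33469 rat promoters of this length, 0.332% held GGAAATTCC, 14.2% held TATAAA and 4.38% held AGAGGAAG. A match describes these letters and is no evidence that a factor binds there.

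Set side by side, the 9 fitted changes leaned to 1 side in comparisons of Nampt++ samples, while every 95% interval included 0. The estimates farthest from 0 in units of their error were those of Itgal and Itgb2 between Nampt+ and Nampt++ samples. Of Nampt++ samples against controls, 9 of 9 fold changes were above 0, with a median of 0.37, where 50.4% of all genes tested were above 0 with a median of 0.00. Of Nampt+ samples against controls, 4 of 9 were above 0 (49.3% of all genes), and the median was -0.04. From Nampt++ to Nampt+ samples 0 of 9 were above 0 (50% of all genes), and the median was -0.24. These comparisons share their samples in pairs, and the genes partly share the cells that make them, so the 9 signs are not 9 observations and no test was made of them. Within rats and by FPKM, 7 of the 9 genes were lower at Nampt+ status in rat 1, 4 in rat 2, 7 in rat 3 and 6 in rat 4. In at least 3 rats, 5 genes were lower, and the part of the haemoglobin share in these FPKM counts was not tested. In the edgeR fit from Nampt++ to Nampt+ samples with haemoglobin genes left out, 0 of 9 changes were above 0, with a median of -0.27.

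**Figure D4:**
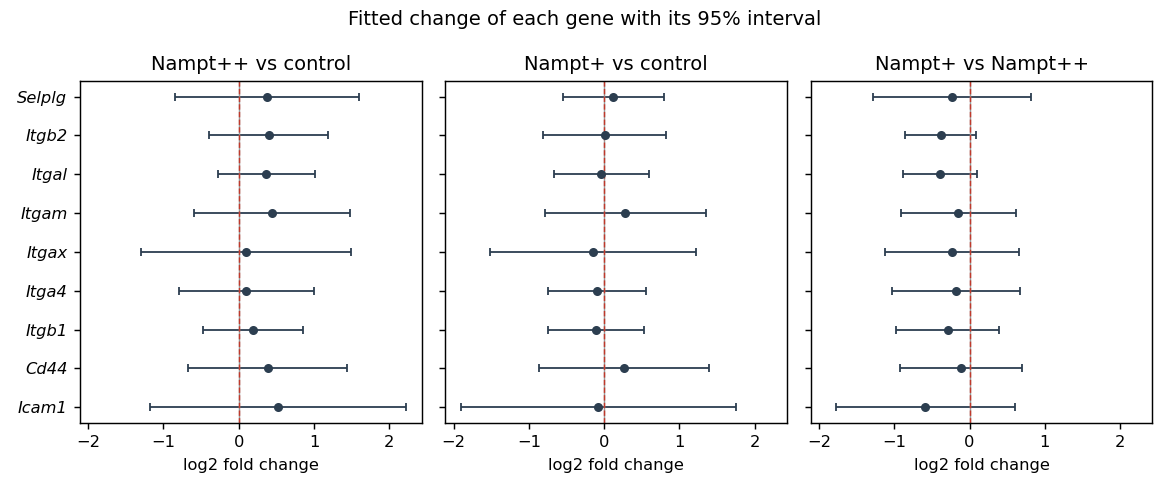
Fitted log2 fold change (x axis) of the 9 genes (y axis) in the 3 comparisons, from edgeR on the deposited counts. Points are estimates, bars are 95% intervals, the grey line is 0 and the red dashed line is the median of all genes tested. Every interval includes 0, the widest being those of Icam1, from -1.18 to 2.22 between Nampt++ samples and controls and from -1.90 to 1.75 between Nampt+ samples and controls.

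Some of the samples that were high or low were shared between these genes, in groups that cut across CIA status. The 3 lowest samples were the same for Itgam, Cd44 and summed neutrophil markers, namely control 3, rat 2 at Nampt++ status and rat 1 at Nampt+ status. Their 3 highest did not all match. The Nampt+ sample of rat 2 was second highest for neutrophil markers, with 15500 FPKM, but had only 10.6 FPKM of Itgam. The 3 highest samples were the same for Icam1, Itgax and summed monocyte markers, namely control 2 and the Nampt++ samples of rats 3 and 4. Their 3 lowest samples all included controls 1 and 3 and differed in the other. The Nampt+ sample of rat 2 was the lowest for Itgal, Itga4, Itgb1, T cell markers and NK cell markers, and it had the largest share of haemoglobin counts, 42.8%. Control 3, in contrast, was the highest for T cell markers with 1120 FPKM but the second lowest for Itgal with 62.4. These are orders of samples read from the values, and the part of cell content in the levels of the 9 genes was not tested.

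**Figure D5:**
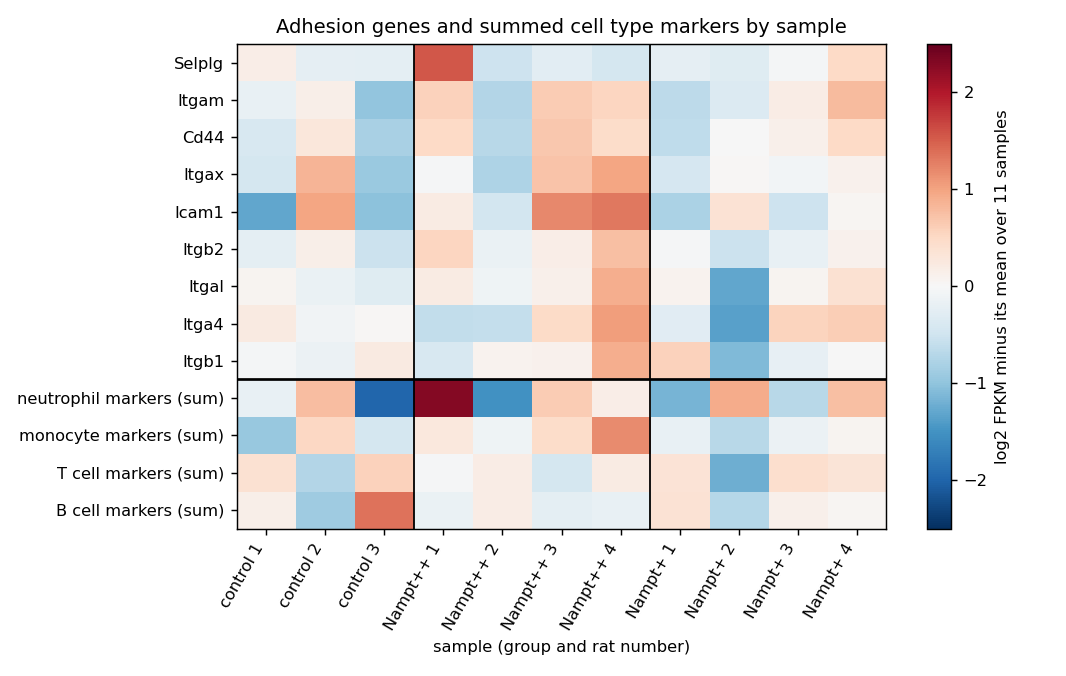
Level of the 9 adhesion genes and of 4 summed lists of cell type markers (y axis) in the 11 samples (x axis), as log2 FPKM minus the mean over the samples, red for above and blue for below. Black vertical lines part controls, Nampt++ and Nampt+ samples, and the horizontal line parts genes from marker sums. Control 3, Nampt++ sample 2 and Nampt+ sample 1 are blue for Itgam, Cd44 and neutrophil markers together, and Nampt+ sample 2 is blue for Itgal, Itga4, Itgb1 and T cell markers. Other samples part, with Nampt+ sample 2 red for neutrophil markers but blue for Itgam, and control 3 red for T cell markers but blue for Itgal.

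For each gene the 2 genes of most similar pattern were sought among the 4930 genes that averaged at least 10 FPKM, by Pearson's r of log2(FPKM + 1) over the 11 samples, of which 8 come from 4 rats. All samples share the differences in cell content and haemoglobin share given above, so r is a description with no p. Selplg was followed most closely by Numb (r = 0.984, Spearman's rho = 0.909) and Stxbp2 (0.971, 0.773). Itgb2 went with Sin3b (0.947, 0.936) and Myl12a (0.945, 0.955), and Itgal with Zmiz1 (0.937, 0.836) and Atp13a2 (0.936, 0.918). Itgam went with Diaph1 (0.970, 0.991) and Rab8b (0.966, 0.945), and Itgax with Fas (0.970, 0.955) and Zeb2 (0.964, 0.927). Itga4 went with Ankrd44 (0.966, 0.936) and Inppl1 (0.961, 0.964), and Itgb1 with Capn2 (0.939, 0.773) and Lmo2 (0.934, 0.891). Cd44 went with Plekho2 (0.986, 0.964) and Arhgap18 (0.979, 0.982), and Icam1 with Cd82 (0.978, 0.982) and Ninj1 (0.976, 0.945). For Stxbp2 and Capn2 rho was well below r.

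The wider adhesion machinery was covered by 64 listed gene symbols in 5 roles, of which 61 were found. Fyb, Itgad and Pecam1 were not, but Fyb1, listed beside Fyb, was found and tested. In the 3 comparisons 44, 45 and 45 were tested. In Nampt++ samples against controls 0 of 44 were called against 0.686% of all genes. By edgeR, 2 of the 44 had an unadjusted p under 0.05 against 1.57% of all genes, neither with a ratio past the thresholds. Named for this after their values were seen, these were Cd24, a sialoglycoprotein that P-selectin binds, with a fold change of -0.97 (unadjusted p = 0.0263, edgeR), and Lyve1, a hyaluronan receptor, with 0.76 (unadjusted p = 0.0407, edgeR), both with an adjusted p of 0.9999. In Nampt+ samples against controls 0 of 45 were called and 0 had an unadjusted p under 0.05 by edgeR. The shares over all genes tested were 0.497% and 0.87%, so these counts of 0 say nothing particular about the 45 genes. In Nampt+ against Nampt++ samples 1 of 45 was called, where 0.642% of all genes tested were called in either direction. It was lower in Nampt+ samples, as were the 0.33% of all genes tested that were called lower.

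This gene was St3gal4 (ENSRNOG00000009850), a sialyltransferase that helps to finish the sugars by which selectins hold PSGL-1. Its FPKM was 24.6, 39.5 and 18.9 in controls, 112, 16.8, 42.4 and 56.7 in Nampt++ samples of rats 1 to 4 and 22.3, 21.7, 19.4 and 27.6 in Nampt+ samples. The level was lower at Nampt+ status in 3 of 4 rats, and the groups overlapped because the Nampt++ sample of rat 2 was below all Nampt+ samples. The fold change was -1.11 (standard error 0.47, edgeR, unadjusted p = 0.0427, adjusted p = 0.9996). The call was lost with the rat as a replicate block (-0.98). It was also lost when 1 Nampt++ sample was left out, that of rat 1 (-0.58), 3 (-1.23) or 4 (-1.20), or 1 Nampt+ sample, that of rat 1 (-1.05), 3 (-0.98) or 4 (-1.12).

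By role, the median fold change of Nampt++ samples against controls was 0.24 over 16 genes of integrin activation and the cytoskeletal link, among them, as examples picked with the values known, talin (Tln1, 0.28) and kindlin-3 (Fermt3, 0.19). It was 0.20 over 6 other integrin subunits, 0.10 over 11 selectins and selectin ligands, 0.02 over 9 integrin ligands and other adhesion receptors, and 0.56 over the 2 shedding proteases Adam8 and Adam17, which cut adhesion molecules from the cell. The median over all tested genes was 0.00. Of the 44 genes, 33 were above 0, where 50.4% of all genes tested were. From Nampt++ to Nampt+ samples 12 of 45 were above 0 and the median was -0.11, and from controls to Nampt+ samples 32 of 45 were above 0 with a median of 0.09. These counts rest on the same shared samples as those of the 9 adhesion genes, and no test was made of them.

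Ligands of these leukocyte molecules were present at unequal levels. Vcam1, the ligand of VLA-4, had at most 0.0860 FPKM in any sample, and Sele, the endothelial selectin, at most 0.165. Icam2, a further ligand of LFA-1, averaged 41.0 ± 8.06 (n = 3, SD) in controls, and Selp, the P-selectin that binds PSGL-1 and that platelets make as well, ranged from 1.84 to 15.1 FPKM. These 4 genes were looked at after their values were seen.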

How the data were processed

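WBC RNA of 4 CIA rats at Nampt++ and Nampt+ status and of 3 normal healthy controls had been sequenced as poly(A) libraries. The deposited table holds, per gene, whole-number read counts, not normalized, and FPKM values the authors computed. Cutadapt 1.9, HISAT2 2.0.4 and StringTie 1.3.4 stand in the submitters' processing notes. The genome build and counting method are not given in the sources used here, and positions are as deposited. An FPKM of 1e-04 was read as 0. Groups were taken from the labels. Each pair of groups was fitted separately in edgeR 4.0.16 (quasi-likelihood test, TMM factors), on the genes averaging at least 1 FPKM in the samples compared, which were 11219, 11269 and 11219 genes. Benjamini-Hochberg adjustment ran over all of these. DESeq2 1.42.0 and limma 3.58.1 on log2(FPKM + 1) were alternatives, beside other scalings, filters, a replicate block and omission of each sample. The tests were tried on simulated counts with known changes.

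Members and lists were chosen with earlier results of these data known. Named are the 9 members, listed adhesion genes past the thresholds, the 2 genes most like each member and the highest gene of each marker list. Adam8 and Adam17 are named as the whole of their list, and further genes are marked in the text as picked with their values known. Itga2b stands in both an adhesion and the platelet list. Some marker genes were not found by symbol, and 1 gene looked at is not reported here. Samples with the same number at both statuses come from 1 rat, by the study's methods and the numbering in the labels. Over 11242 genes, deviations of both samples from their group means correlated at -0.27, -0.24, 0.23 and 0.09 in rats 1 to 4. The samples of rats 1 and 2 thus leaned in opposite directions. These values do not show a likeness within rats, and the pairing rests on the methods and labels alone. Replicates differed by more than counting error (smallest chi-square 270.7 for each degree of freedom), so the number of rats, not depth, limits precision.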

Additional observations from a re-analysis of the deposited data

Results flagged for a closer look

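Among the 9 genes in both groups of 4 samples, 18 sets of values were screened for a sample far from the others, and chance marks about 1 in 20 such sets. In 2 of them 1 sample stood apart. Selplg had 317 FPKM in the Nampt++ sample of rat 1, and the gap to the next sample was 0.939 of the whole range of the group. Itgam had 8.14 FPKM in the Nampt++ sample of rat 2, below the other 3 samples of the group by 0.893 of the range.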

How the results depend on the processing

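The count of the 9 adhesion genes past the thresholds was 0 under every alternative that kept all samples, in each comparison. Leaving out 1 sample gave 0 to 1 between Nampt++ samples and controls and 0 to 1 between Nampt+ and Nampt++ samples, the 1 being Icam1 each time.

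The number of all genes past the thresholds was 77, 56 and 72 for Nampt++ samples against controls, Nampt+ samples against controls and Nampt+ against Nampt++ samples. Without a filter it was 306, 261 and 295, with a mean FPKM of at least 10 it was 25, 14 and 19, and by adjusted p it was 0, 0 and 0. DESeq2 gave 121 in the first comparison. Leaving out each sample gave 53 to 462, 49 to 136 and 58 to 165, the highest without control 2, control 2 and the Nampt+ sample of rat 2. Other samples that moved it by more than 1.5 times were control 3 (142 and 112), the Nampt++ sample of rat 2 (184 and 163) and the Nampt+ sample of rat 1 (98). With the rat as a replicate block, 56 genes were past the thresholds, and 166 had an unadjusted p under 0.05. The block turned Selplg to 0.0199 and ended the call of St3gal4, and it changed no other call of a named gene.

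Fold changes near 0 turned sign under some settings. Between Nampt+ samples and controls, Itgb2 was -0.0045 with a mean FPKM of at least 10, Itgax was 0.0822 and 0.0876 and Icam1 0.22 and 0.22 by limma with a pseudocount of 1 and 0.1, and Itgam was -0.0208 with its counts added to those of Itgax. With each sample left out, ranges that crossed 0 between Nampt++ samples and controls were -0.34 to 0.59 for Selplg, -0.31 to 1.10 for Itgax, -0.19 to 0.31 for Itga4 and -0.0061 to 0.37 for Itgb1. Between Nampt+ samples and controls they were -0.0849 to 0.25 for Selplg, -0.27 to 0.45 for Itgb2, -0.25 to 0.13 for Itgal, -0.0739 to 0.78 for Itgam, -0.55 to 0.87 for Itgax, -0.25 to 0.0541 for Itga4, -0.068 to 0.87 for Cd44 and -0.74 to 1.41 for Icam1. Between Nampt+ and Nampt++ samples they were -0.49 to 0.47 for Selplg, -0.35 to 0.0564 for Itgam, -0.39 to 0.089 for Itga4 and -0.40 to 0.0905 for Cd44. Ranges of 1 sign between Nampt++ samples and controls, each lowest without control 3 and highest without control 2, were 0.12 to 0.84 for Itgb2, 0.15 to 0.53 for Itgal, 0.0879 to 0.94 for Itgam, 0.0565 to 0.99 for Cd44 and 0.12 to 2.01 for Icam1. The cause of these changes was not tested.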
